A study of Ovis aries with 32 samples.

Results

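The IL6, JAK1, STAT3 and SOCS3 axis runs from a secreted cytokine through a receptor-bound kinase and a transcription factor to an inhibitor of the same route. The 4 genes were chosen by name for these roles, with earlier results of these data known, each was measured by 1 probe, and together they are 4 of the 2544 genes named on the array. Middle cerebral arteries (MCA) of sheep at 4 ages were left untreated or exposed to phenylephrine (PHE), an agonist of alpha-1 adrenergic receptors, and RNA was measured on 32 one-colour Agilent arrays, 4 in each of 8 groups. The design asks how transcripts of the artery respond to alpha-1 adrenergic stimulation at each age. PHE was given at 10 µM for 30 min, and each PHE group has an untreated group of the same age, with no agent. Premature fetuses were at 96 days of gestation. Near-term fetuses were at 146 days by the sample labels and 140 days by the methods text, newborn lambs 12 hours or 5 days old, and adult sheep 2 years or 18 to 24 months old, in the same order of sources. The sources used here do not state whether PHE and untreated segments of equal replicate number share an animal, and p-values measure the spread between these arrays.

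Interleukin 6 binds its own receptor together with the shared subunit gp130, which carries no kinase of its own and relies on JAK family kinases bound to its tail. The kinases phosphorylate STAT3, which enters the nucleus and induces target genes, among them SOCS3, whose product binds gp130 and JAK and ends the signal. Smooth muscle and endothelium of arteries are both known sources of interleukin 6 and responders to it. Phosphorylation was not measured here, only RNA.

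Levels are given as log2 of a probe's signal over the 75th percentile of signals on its array, so 0 is that percentile, and no probe's level is set against another's. The 75th percentile lay between 648 and 1001 intensity units on the premature arrays, 655 and 879 on the newborn arrays and 837 and 1730 on the adult arrays. The near-term arrays stood apart, from 125 on untreated replicate 4, 373 on PHE replicate 1 and 397 on untreated replicate 3 to 1683 on PHE replicate 4. Premature and newborn arrays were scanned on another day than near-term and adult arrays. Differences in level or response between these pairs of ages cannot be told apart from scan day. The smooth muscle marker CNN1 was well above background on all 32 arrays, while the endothelial marker TIE1 was well above background on all 4 arrays in only 3 of the 8 groups (both premature groups and near-term PHE). Of the 4 members, 3 were higher with PHE and 0 lower in the premature fetus, where 9.18% of all probes tested were called higher and 8.22% lower. In the near-term fetus 2 were higher and 1 lower, beside 17.6% and 18.3% of all probes. Newborn and adult arteries each had 2 higher and 0 lower, beside 5.9% and 5.16% of all probes in the newborn and 3.02% and 0.825% in the adult group. A call is an adjusted p under 0.05 in limma with a change of at least 1.5-fold, two-sided. The probes of JAK1, STAT3 and SOCS3 were named through the study's list of altered genes, so these counts are not independent of the names. IL6 at each age and SOCS3 outside the adult were tested only because all 4 PHE arrays read them well above background.

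**Figure D1:**
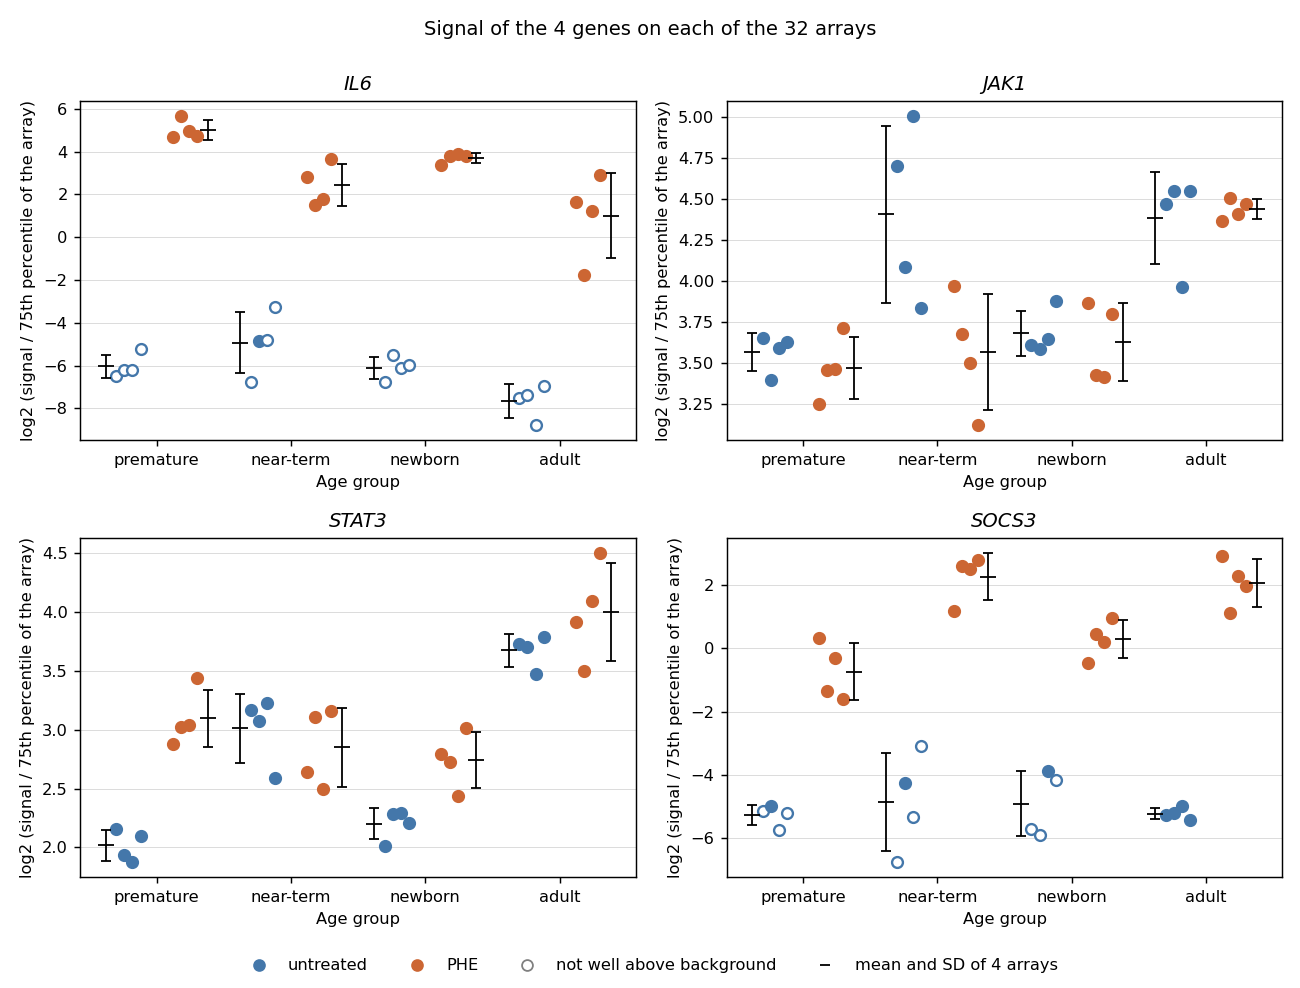
Level of each gene (log2 of signal over the array's 75th percentile, vertical axis) on each of the 32 arrays by age group, with untreated arrays in blue and PHE arrays in orange, open points for signals not well above background, and the group mean with its SD (n = 4) in black. IL6 and SOCS3 are higher on every PHE array than on every untreated array of the same age, whereas JAK1 stays between 3.13 and 5.01 in all groups.

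The ligand was separated between untreated and PHE arteries at all 4 ages. In the premature fetus the level of IL6, which encodes interleukin 6, was -6.50, -6.21, -6.21 and -5.25 on untreated arrays 1 to 4 and 4.69, 5.65, 4.96 and 4.71 on PHE arrays 1 to 4. In the newborn lamb the untreated levels were -6.79, -5.51, -6.13 and -5.99 and the PHE levels 3.37, 3.80, 3.87 and 3.79. At both ages the groups lay far apart, and none of the untreated arrays read IL6 well above background. In the adult the untreated levels were -7.49, -7.37, -8.77 and -6.96 and the PHE levels 1.64, -1.78, 1.24 and 2.90. Adult PHE replicate 2 was by far the lowest of its group but was still above all untreated arrays, of which none was well above background. In the near-term fetus the untreated levels were -6.75, -4.84, -4.82 and -3.28 and the PHE levels 2.80, 1.51, 1.77 and 3.66. Here the untreated arrays spread over more than 3 log2 units, only replicate 2 was well above background, and replicate 1 read IL6 at the lowest signal of its array. Untreated replicate 2 read 88.4% of all its signals well above background. That share was 59.3% to 71.3% on the other untreated near-term arrays and 70.7% to 95.7% on the near-term PHE arrays.

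Because untreated IL6 was mostly at background, its increase is given as the mean of the PHE arrays against an untreated mean in which each array takes the higher of its own signal and the lowest signal well above background on that array. IL6 rose at least 1127-fold in the premature fetus (fitted log2 difference 11.04, 95% interval 9.61 to 12.48, limma adjusted p = 1.17e-11) and at least 363-fold in the newborn lamb (9.81, 8.38 to 11.24, adjusted p = 4.63e-10). It rose at least 140-fold in the adult (8.65, 7.21 to 10.08, adjusted p = 1.03e-09), where the fitted difference was 9.57 without PHE replicate 2 and 8.01 without PHE replicate 4. The same calculation gave 85.6-fold in the near-term fetus (7.36, 5.92 to 8.79, adjusted p = 2.08e-08), where 1 of the 4 untreated arrays measured the gene. All these folds are between group means and do not bound the difference from each untreated array alone. Without near-term untreated replicate 1 the fitted difference was 6.75. Every PHE array lay above every untreated array at each age. More RNA per cell and more cells that express the gene cannot be told apart in these whole-artery samples. On the slide that held all near-term PHE arrays and untreated replicate 4 the difference was 5.71, and on the slide shared by all adult PHE arrays and untreated replicates 1 and 2 it was 8.43. With slide as a block the values were 5.71 (adjusted p = 0.000407) and 8.13 (adjusted p = 2.93e-08). The near-term value, here and for the other genes with slide as a block, rests on that 1 untreated array, which was not well above background for IL6 and is assumed to vary like the others. The methods' t-test, which estimates the spread for each gene alone, called IL6 at all 4 ages at its own unadjusted threshold, but after Benjamini-Hochberg adjustment gave 0.0704 near-term and 0.179 for adults.

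Across the 8 groups the mean level of IL6 ran from premature PHE (5.00 ± 0.45, SD, n = 4) through newborn PHE (3.71 ± 0.23), near-term PHE (2.43 ± 0.99) and adult PHE (1.00 ± 1.99) to the untreated groups. Premature PHE did not overlap newborn PHE, but newborn and near-term PHE overlapped, as did near-term and adult PHE. The untreated means were -4.92 ± 1.42 near-term, -6.04 ± 0.55 premature, -6.10 ± 0.53 newborn and -7.65 ± 0.78 adult, and of these neighbours only newborn and adult did not overlap. The untreated levels are mostly below the range that the arrays measure, so their order carries little information. Of the named probes compared over the 32 arrays, IL6 was most like SLCO4A1 (r = 0.98), PTGS2 (r = 0.98) and MYC (r = 0.96), a description over arrays that share the PHE treatment.

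The receptor side was represented by other genes of the pathway list. IL6R, the receptor that binds interleukin 6 itself, was not called at any age, with differences of 0.45, 1.16 and -0.30 in the premature, newborn and adult groups, and it was not tested in the near-term fetus, where it was not well above background on enough arrays. IL6ST, which encodes gp130, rose by 1.97 in the premature fetus (adjusted p = 1.48e-06) and 1.14 in the newborn lamb (adjusted p = 0.00207). In the near-term fetus IL6ST rose by a fitted 1.15 (adjusted p = 0.000726), with 3 of the 4 untreated arrays measuring it, and in the adult its difference of 0.66 did not pass (adjusted p = 0.175). OSMR, the gp130 partner that binds oncostatin M, rose at all 4 ages, by 2.74, 1.23, 1.36 and 1.60 in the premature, near-term, newborn and adult groups. In all, 5 of 7 receptor genes tested were higher in the premature, 4 of 6 in the near-term, 4 of 7 in the newborn and 1 of 7 in the adult group, beside 9.18%, 17.6%, 5.9% and 3.02% of all probes tested. Of the 40 other pathway genes with a probe, 22 were named through the study's list of altered genes, which favours genes that changed. The receptor counts are not split by the source of the names. IFNAR1, a subunit of the type I interferon receptor, was lower in the near-term fetus (-0.65, adjusted p = 0.036), the only decrease called among the pathway genes tested apart from JAK1.

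JAK1, a kinase bound to gp130 and to several other cytokine receptors, was well above background on all 32 arrays. In the near-term fetus its level was 4.70, 4.09, 5.01 and 3.84 on untreated arrays 1 to 4 and 3.97, 3.68, 3.51 and 3.13 on PHE arrays 1 to 4. The groups overlapped, since PHE replicate 1 lay above untreated replicate 4. In the premature fetus the untreated levels were 3.66, 3.40, 3.59 and 3.63 and the PHE levels 3.26, 3.46, 3.47 and 3.71. Newborn levels were 3.61, 3.59, 3.65 and 3.88 untreated and 3.87, 3.43, 3.42 and 3.80 with PHE. The 2 treatments were interleaved at both ages. In the adult the untreated levels were 4.47, 4.55, 3.97 and 4.55 and the PHE levels 4.37, 4.51, 4.41 and 4.47, and the PHE arrays lay within the range of the untreated arrays, whose replicate 3 was low.

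JAK1 fell by 0.84 in the near-term fetus (95% interval -1.27 to -0.41, adjusted p = 0.00283), a 1.79-fold decrease. This was the comparison through which its probe was named, from the study's list of altered genes, so the call is not independent of the name. The differences at the other ages were -0.10 for premature (-0.53 to 0.34), -0.05 for newborn (-0.48 to 0.38) and 0.06 for adult arteries (-0.38 to 0.49), with adjusted p of 0.801, 0.932 and 0.97. With slide as a block JAK1 was no longer called in the near-term group (-0.27, adjusted p = 0.522), which is also the difference from the only untreated array on the slide of the PHE arrays. It was also lost when the spread was taken from the near-term arrays alone (adjusted p = 0.244) and with normexp background correction (-0.40), quantile normalization (-0.49, under 1.5-fold) and scaling to the median (-0.99, adjusted p = 0.0566).

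The order of JAK1 levels was adult PHE (4.44 ± 0.06), near-term untreated (4.41 ± 0.54) and adult untreated (4.38 ± 0.28), which all overlapped, then a gap of 0.70 to newborn untreated (3.68 ± 0.14). Below it newborn PHE (3.63 ± 0.24), near-term PHE (3.57 ± 0.35), premature untreated (3.57 ± 0.12) and premature PHE (3.47 ± 0.19) each overlapped the next. The patterns most like JAK1 over the 32 arrays were those of PCGF5 (r = 0.94), ZYG11B (r = 0.93) and ZMAT2 (r = 0.92). No other kinase of the list had a named probe.

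STAT3, the transcription factor that JAK kinases phosphorylate downstream of gp130, was also well above background on all 32 arrays. In the premature fetus its level was 2.16, 1.94, 1.88 and 2.09 on untreated arrays 1 to 4 and 2.88, 3.02, 3.04 and 3.44 on PHE arrays 1 to 4. In the newborn lamb the untreated levels were 2.02, 2.29, 2.29 and 2.21 and the PHE levels 2.79, 2.73, 2.44 and 3.02. At both ages all PHE arrays lay above all untreated arrays, with a narrower gap in the newborn lamb. In the near-term fetus the levels were 3.16, 3.07, 3.23 and 2.59 untreated and 2.64, 3.11, 2.49 and 3.16 with PHE. In the adult they were 3.73, 3.70, 3.47 and 3.79 untreated and 3.91, 3.50, 4.09 and 4.50 with PHE. The near-term groups were mixed, and in the adult PHE replicate 2 fell among the untreated arrays.

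STAT3 rose by 1.08 in the premature fetus (95% interval 0.67 to 1.48, adjusted p = 0.000257), a 2.11-fold increase, and the call held under all alternatives run for it. Its probe was named through this same comparison, so this call too is not independent of the name. The newborn difference of 0.54 (0.14 to 0.95) did not pass (adjusted p = 0.0758), although the groups did not overlap, and neither did 0.33 in the adult (-0.08 to 0.73, adjusted p = 0.531) nor -0.16 in the near-term fetus (-0.57 to 0.24, adjusted p = 0.541). The near-term value changed sign with slide as a block (0.26), after normexp background correction (0.51) and after quantile normalization (0.11). On the slide shared by adult PHE and untreated replicates 1 and 2 the adult difference was 0.28.

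STAT3 levels were ordered adult PHE (4.00 ± 0.41), adult untreated (3.67 ± 0.14), premature PHE (3.09 ± 0.24), near-term untreated (3.01 ± 0.29), near-term PHE (2.85 ± 0.33), newborn PHE (2.74 ± 0.24), newborn untreated (2.20 ± 0.13) and premature untreated (2.02 ± 0.13). Neighbours overlapped except adult untreated and premature PHE, and newborn PHE and newborn untreated. STAT3 was most like ABL1 (r = 0.88), UVRAG (r = 0.85) and ZFAND5 (r = 0.84) over the 32 arrays. Among the other STAT genes, STAT2, which acts in interferon signalling, rose by 1.40 in the premature, 0.89 in the near-term and 0.94 in the newborn group, and STAT5A and STAT6 were called in the near-term fetus and at no other age (a fitted 1.68 for STAT5A, adjusted p = 0.000165, and 0.86 for STAT6, adjusted p = 0.00198). Near-term STAT5A was measured on 1 of the 4 untreated arrays, and its groups overlapped. Whether the responses of STAT2, STAT5A and STAT6 differ between ages is not reported here.

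The inhibitor SOCS3 responded at all 4 ages. In the adult its level was -5.28, -5.19, -5.00 and -5.43 on untreated arrays 1 to 4 and 2.92, 1.12, 2.28 and 1.96 on PHE arrays 1 to 4. This was the only age at which all 4 untreated arrays read SOCS3 well above background. In the near-term fetus the untreated levels were -6.75, -4.25, -5.32 and -3.10, with only replicate 2 well above background, and the PHE levels 1.18, 2.62, 2.50 and 2.79. Newborn levels were -5.70, -5.89, -3.86 and -4.17 untreated, with only replicate 3 well above background, and -0.48, 0.44, 0.20 and 0.97 with PHE. In the premature fetus they were -5.13, -4.98, -5.74 and -5.22 untreated, with only replicate 2 well above background, and 0.33, -1.35, -0.30 and -1.60 with PHE. No PHE array overlapped an untreated array at any age.

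SOCS3 rose 157-fold in the adult, where both groups were measured (log2 difference 7.29, 95% interval 6.09 to 8.50, adjusted p = 1.03e-09). The adult untreated signals were dim, at 25.4 to 54.1 intensity units, and with normexp background correction the log2 difference was 5.49. Elsewhere 1 of 4 untreated arrays measured the gene, and the fold is that between group means, with dim arrays treated as for IL6. It was 68.9-fold in the near-term fetus (fitted 7.12, 5.92 to 8.33, adjusted p = 1.53e-09), 28.3-fold in the newborn lamb (5.19, 3.98 to 6.40, adjusted p = 8.02e-07) and 19.8-fold in the premature fetus (4.54, 3.33 to 5.74, adjusted p = 2.62e-06). Its probe was named through the study's list of altered genes at all 4 ages, so these calls are not independent of the name. Leaving out near-term untreated replicate 1 gave 6.49 for the near-term fetus, and leaving out untreated replicate 4 gave 7.71. Within slides the difference was 7.30 in the adult and 5.37 in the near-term fetus, and with slide as a block 6.91 (adjusted p = 1.26e-08) and 5.37 (adjusted p = 7.80e-05). The methods' t-test called SOCS3 at all 4 ages at its own unadjusted threshold, but after Benjamini-Hochberg adjustment gave 0.0685 in the adult and 0.11 in the near-term fetus.

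SOCS3 levels were ordered near-term PHE (2.27 ± 0.74), adult PHE (2.07 ± 0.75), newborn PHE (0.28 ± 0.60) and premature PHE (-0.73 ± 0.90), then near-term (-4.85 ± 1.56), newborn (-4.91 ± 1.03), adult (-5.23 ± 0.18) and premature (-5.27 ± 0.33) untreated. Near-term and adult PHE overlapped, adult and newborn PHE did not, newborn and premature PHE did, and all untreated neighbours overlapped. The PHE groups of IL6 and SOCS3 thus came in different orders, with the premature group highest for IL6 and lowest for SOCS3. Both orders divide the ages by scan day, so age cannot be told apart from scan day in them. SOCS3 was most like BTG2 (r = 0.97), NR4A1 (r = 0.96) and IER2 (r = 0.96). Of the 5 other inhibitor genes with a probe, 3 of 5 tested were higher in the premature, 4 of 5 in the near-term, 3 of 5 in the newborn and 2 of 4 in the adult group, beside 9.18%, 17.6%, 5.9% and 3.02% of all probes, and 0 were lower. The inhibitor counts, too, are not split by the source of the names. SOCS2 rose at all ages by 1.92, 1.09, 1.79 and 2.67 in the premature, near-term, newborn and adult groups. PTPN2, a phosphatase that acts on JAK and STAT proteins, rose by 2.47 in the premature, 2.05 in the newborn and 1.53 in the adult group, with 0.47 in the near-term group (adjusted p = 0.377). CISH, a relative of SOCS3, rose by 2.34 in the near-term and 2.17 in the newborn group, with 0.95 in the premature group (adjusted p = 0.224), and was not tested in the adult. PTPN1, another phosphatase, rose by 2.00 in the premature and 3.04 in the near-term group, with 1.74 and 1.09 in the newborn and adult groups (adjusted p = 0.0791 and 0.509). PTPN11 rose by a fitted 2.17 in the near-term group, where 2 of the 4 untreated arrays measured it and the groups overlapped, with -0.015, 0.19 and -0.56 in the premature, newborn and adult groups.

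**Figure D2:**
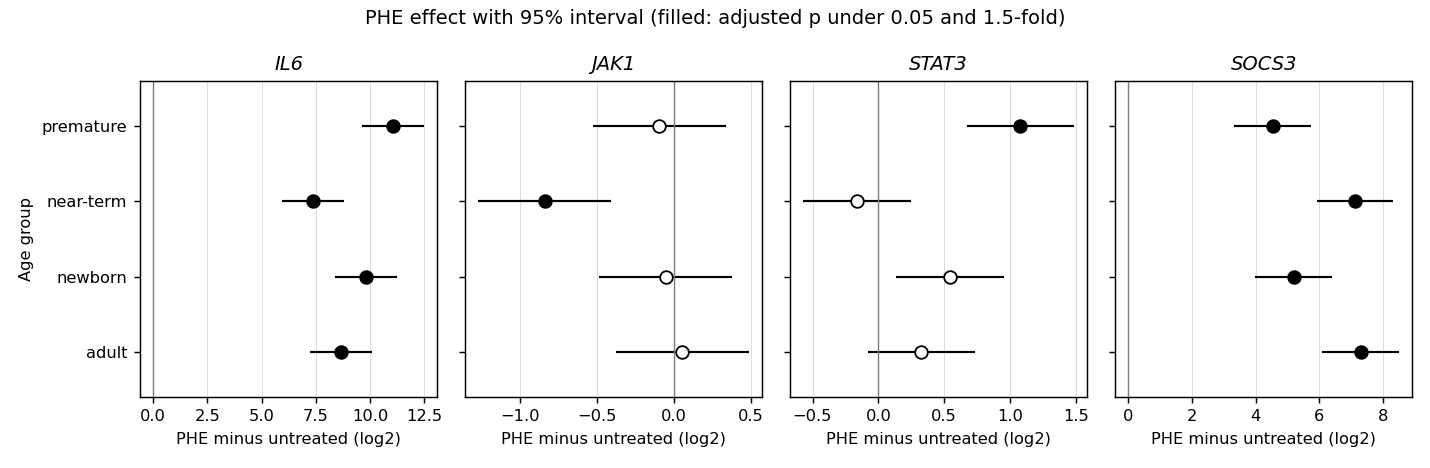
PHE minus untreated difference (log2, horizontal axis) for each gene and age group with its 95% interval from limma, n = 4 arrays per group; filled points passed an adjusted p under 0.05 and 1.5-fold. IL6 runs from 7.36 to 11.04 and SOCS3 from 4.54 to 7.29, whereas JAK1 lies below 0 only in the near-term fetus beyond its interval (-0.84) and STAT3 is called only in the premature fetus (1.08).

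The plot of the 4 effects by age shows that intervals for IL6 and SOCS3 exclude 0 at all ages and that those for JAK1 exclude it only in the near-term fetus and those for STAT3 in the premature fetus and the newborn lamb. Differences between ages were tested as interaction terms. Near-term minus premature was called for 2 of the 4 members, beside 4.46% of all probes, namely IL6 (-3.69, 95% interval -5.72 to -1.66, adjusted p = 0.0328) and STAT3 (-1.24, -1.81 to -0.66, adjusted p = 0.0138). The STAT3 probe was named through the premature comparison that this test uses, so the call is not independent of the name. The IL6 value rests on untreated levels near background, which were higher in the near-term than in the premature group, as well as on lower PHE levels. It was lost on leaving out any 1 of premature untreated replicate 1, 2 or 3, premature PHE replicate 2, 3 or 4, near-term untreated replicate 3 and near-term PHE replicate 2 or 3, with values from -3.78 to -3.38 and adjusted p from 0.0527 to 0.0789, and it was -4.30 without near-term untreated replicate 1. It was also lost with normexp background correction (-3.45, adjusted p = 0.0592), quantile normalization (-2.49, adjusted p = 0.0571) and the spread of the arrays compared alone (adjusted p = 0.0729). The STAT3 difference held on leaving out each array, but was lost with slide as a block (-0.81, adjusted p = 0.126), normexp background correction (-0.69, adjusted p = 0.187), scaling to the median (-1.27, adjusted p = 0.128) and the spread of the arrays compared alone (adjusted p = 0.0859). All premature arrays shared 1 slide and were scanned on another day than the near-term arrays, so age cannot be told apart from slide and scan here.

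The same test for SOCS3 gave 2.59 (0.88 to 4.29), which did not pass (adjusted p = 0.0713), and passed on leaving out near-term untreated replicate 2 (2.79, adjusted p = 0.0427), untreated replicate 4 (3.17, adjusted p = 0.014) or PHE replicate 1 (2.95, adjusted p = 0.0229). It dropped to 0.83 with slide as a block (adjusted p = 0.602) and 1.66 with normexp background correction (adjusted p = 0.216), and passed with quantile normalization (4.18, adjusted p = 0.000746). The SOCS3 difference also passed with scaling to the median (2.55, adjusted p = 0.0467), with array weights and with replicate number as a block. For JAK1 it gave -0.74 (adjusted p = 0.145), and passed without near-term untreated replicate 4 (-0.93, adjusted p = 0.041) or PHE replicate 1 (-0.88, adjusted p = 0.0477), but was -0.17 with slide as a block (adjusted p = 0.791). The JAK1 probe was named through the near-term comparison and the SOCS3 probe through those of all 4 ages, so neither test is independent of the name. Near-term untreated replicate 4 and PHE replicate 1 are the dimmest arrays of the series. The SOCS3 and JAK1 tests both passed with these arrays left out together, an alternative chosen after seeing the data and given below. What the dimness itself contributes was not tested.

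Newborn minus near-term was called by limma for 0 of the 4 members, beside 10.8% of all probes, although all 4 had an unadjusted p under 0.05. The differences were 2.45 for IL6, 0.78 for JAK1, 0.71 for STAT3 and -1.93 for SOCS3, with adjusted p from 0.0859 to 0.134. Each of the 4 passed on leaving out some near-term array. For IL6 this was untreated replicate 1 (3.06, adjusted p = 0.0401), and for STAT3 and SOCS3 untreated replicate 4 (0.85, adjusted p = 0.0395, and -2.52, adjusted p = 0.0308). For JAK1 it was untreated replicate 2 (0.89, adjusted p = 0.0441), untreated replicate 4 (0.97, adjusted p = 0.0227) or PHE replicate 1 (0.92, adjusted p = 0.0257). The JAK1 and SOCS3 probes were named through comparisons that this test uses, so their values are not independent of the name. With slide as a block the difference passed for IL6 (4.10, adjusted p = 0.0227) but was smaller for JAK1 (0.22, adjusted p = 0.713), STAT3 (0.28, adjusted p = 0.617) and SOCS3 (-0.18, adjusted p = 0.921). With normexp background correction it was likewise 2.73 for IL6 (adjusted p = 0.0407), 0.29 for JAK1, -0.069 for STAT3 and -0.45 for SOCS3.

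Adult minus near-term was called for 0 of the 4 members, beside 10.7% of all probes, with 1 at an unadjusted p under 0.05. That gene was JAK1 (0.89, adjusted p = 0.0517), which passed without adult untreated replicate 2 (0.95, adjusted p = 0.0492), near-term untreated replicate 2 (1.00, adjusted p = 0.0249), near-term untreated replicate 4 (1.08, adjusted p = 0.013) or near-term PHE replicate 1 (1.03, adjusted p = 0.0131), but was 0.28 with slide as a block (adjusted p = 0.654) and 0.38 with normexp background correction (adjusted p = 0.249). JAK1 also passed with array weights and with replicate number as a block. Its probe was named through the near-term comparison that this test uses, so these values are not independent of the name. With quantile normalization SOCS3 passed on the other side of 0 (-2.47, adjusted p = 0.0213, against 0.17 as reported). With array weights STAT3 passed (0.76, adjusted p = 0.045). Newborn minus premature was called for 0 of the 4, beside 0.00968% of all probes, and 0 had an unadjusted p under 0.05. Adult minus newborn was called for 0 of the 4, beside 0.0961%, and SOCS3 (2.10, adjusted p = 0.674) was the 1 member with an unadjusted p under 0.05. A threshold missed in these tests does not show that the responses were alike.

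Untreated arteries were compared by test only between ages whose arrays were scanned on the same day. Adult minus near-term was called for 1 of the 3 members tested, beside 43.4% of all probes, which is STAT3 (0.66, 95% interval 0.25 to 1.07, adjusted p = 0.00797), with every adult array above every near-term array. Within slides it was 0.47 and 0.57, and with slide as a block 0.53 (adjusted p = 0.0453), under 1.5-fold. Without near-term untreated replicate 4 it was 0.52 (adjusted p = 0.0397), also under 1.5-fold, whereas normexp background correction gave 1.33 (adjusted p = 1.40e-05) and scaling to the median 1.18 (adjusted p = 0.00303). JAK1 (-0.02, adjusted p = 0.933) and SOCS3 (-0.37, adjusted p = 0.626) did not pass, and IL6 was not tested because it was below background in both groups on most arrays. SOCS3 was called in opposite directions with normexp background correction (-2.11, adjusted p = 0.00196) and quantile normalization (1.99, adjusted p = 0.00165). Newborn minus premature was called by limma for 0 of the 2 members tested, JAK1 (0.11) and STAT3 (0.18), beside 10.9% of all probes, and 0 had an unadjusted p under 0.05.

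Of 93 pathway genes listed, 44 had a named probe, 40 of them besides the 4 members. Among these 40, 23 of 33 tested were higher and 0 lower in the premature fetus, and 23 of 30 were higher and 1 lower in the near-term fetus. For newborn arteries the counts were 22 higher and 0 lower of 33, and for adult arteries 14 higher and 0 lower of 29. Over all probes tested the shares higher and lower were 9.18% and 8.22% in the premature, 17.6% and 18.3% in the near-term, 5.9% and 5.16% in the newborn and 3.02% and 0.825% in the adult group. Their median difference was 1.96, 1.54, 1.79 and 1.09 in the premature, near-term, newborn and adult groups, against -0.08, -0.08, -0.08 and -0.04 over all probes tested. The names of 22 of the 40 came through the study's list of altered genes, which favours genes that changed. For the 18 named by accession or by the array file the counts were 6 of 11 higher in the premature, 6 of 11 higher and 1 lower in the near-term, 7 of 11 higher in the newborn and 4 of 10 higher in the adult group. With the 4 members the near-term list held 27 altered genes, which became 12 when the spread was taken from the near-term arrays alone and 17 with slide as a block. Over all probes the near-term calls were 1741 higher and 1820 lower as reported. They were 130 higher and 1 lower with the spread of the near-term arrays alone, and 1415 and 1467 with slide as a block.

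**Figure D3:**
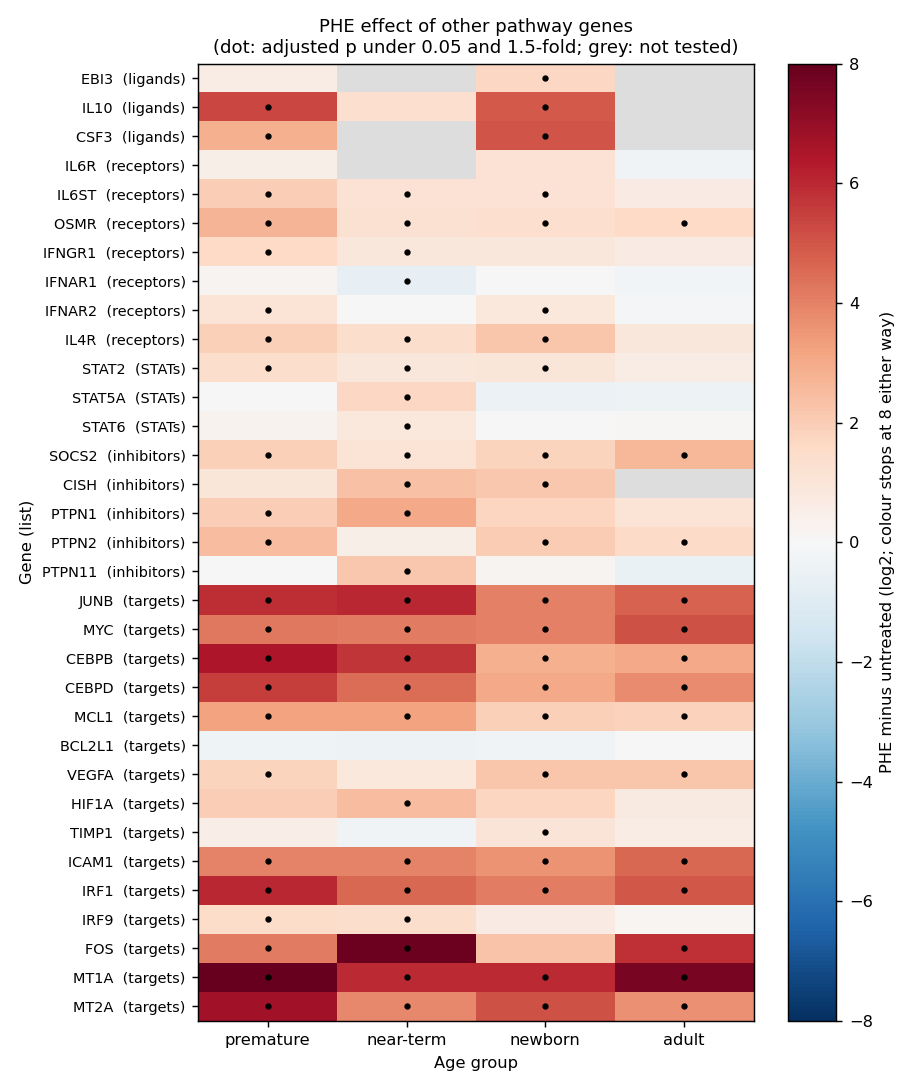
PHE minus untreated difference (log2, colour) for the other pathway genes tested in at least 1 age group (vertical axis, with their list in brackets) in the 4 age groups (horizontal axis); dots mark an adjusted p under 0.05 and 1.5-fold, and grey cells were not tested. JUNB, a target gene, is called in all 4 groups, with 5.92, 6.03, 4.04 and 4.72 from premature to adult.

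The colour map of the pathway genes includes known targets of STAT3. Of 15 target genes tested at each age, 12 were higher in each fetal group, beside 9.18% of all probes in the premature and 17.6% in the near-term fetus, and 11 in newborn and in adult arteries, beside 5.9% and 3.02%. JUNB, a subunit of the AP-1 transcription factor, rose by 5.92, 6.03, 4.04 and 4.72 in the premature, near-term, newborn and adult groups, and MYC, a growth regulator, by 4.22, 4.17, 4.05 and 5.06. IRF1, an interferon-responsive transcription factor, rose by 6.05, 4.60, 4.11 and 4.94. MCL1, an inhibitor of apoptosis, rose by 3.21, 3.19, 1.92 and 1.83. BCL2L1, another apoptosis inhibitor, was not called at any age, with differences of -0.37, -0.39, -0.31 and 0.04. Among the other ligands, 2 of 3 tested were higher in the premature fetus and 3 of 3 in the newborn lamb, beside 9.18% and 5.9% of all probes. EBI3 was not called in the premature fetus (mean level -2.43 untreated and -1.83 with PHE). It rose in the newborn lamb (-5.39 and -3.76), with 1 of the 4 untreated arrays measuring it. CSF3 rose at least 1.92-fold in the premature fetus and 9.01-fold in the newborn lamb. IL10 rose 41.4-fold and 27.9-fold at those ages, by the same calculation as IL6, with 3 and 2 of the 4 untreated arrays measuring it. IL10 was the only ligand of the list besides IL6 tested in the near-term fetus, where it was not called (1.33, adjusted p = 0.174), and none besides IL6 was tested in the adult. The target and ligand counts are not split by the source of the names, many of which came through the study's list of altered genes. Many of these genes also respond to signals other than interleukin 6, and dependence on the axis was not tested.

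Markers of cell types were compared between PHE and untreated arteries in the same way. The probes of CD14, CD68, HBA1, MBP, COL1A1, COL1A2 and TIE1 were named through the study's list of altered genes, which favours genes that changed. No marker named by accession or by the array file was called at any age. Of 8 leukocyte markers 5 had a probe. CD14 was not called at any age (0.99, -1.03, 1.06 and 1.21 in the premature, near-term, newborn and adult groups). CD68 rose by 0.99 in the near-term, 1.45 in the newborn and 1.24 in the adult group, with 0.92 in the premature group (adjusted p = 0.0678), and ITGAM was not well above background on most arrays. CD3E was not called in the premature (-0.50, adjusted p = 0.682) or near-term group (-1.34, adjusted p = 0.134) and was not tested at the later ages, and LYZ, tested at no age, differed by -0.84, -1.72, 0.13 and -0.35. The summed leukocyte signal, in multiples of the 75th percentile, was 1.91, 2.19, 2.05 and 2.17 on premature untreated and 3.13, 5.43, 3.08 and 4.46 on premature PHE arrays. It was 2.60, 5.01, 3.62 and 2.25 on near-term untreated and 2.63, 0.871, 2.24 and 2.21 on near-term PHE arrays. It was 3.32, 1.94, 5.46 and 0.998 on newborn untreated and 3.93, 5.27, 6.41 and 4.77 on newborn PHE arrays, and 0.395, 0.684, 0.942 and 0.384 on adult untreated and 1.67, 0.556, 1.20 and 2.11 on adult PHE arrays. The sum was thus higher on all PHE than on all untreated arrays in the premature fetus only.

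Of 4 blood markers 2 had a probe. HBA1 fell by 1.96 in the premature and 2.38 in the near-term group, with -1.0 in the newborn (adjusted p = 0.0988) and -0.75 in the adult group (adjusted p = 0.419), and HBB was not called in the premature (-0.71), near-term (-1.10) or newborn group (0.087) and was not tested in the adult. The summed blood signal, in multiples of the 75th percentile, ran from 27.7 to 50.9 on untreated and 10.9 to 12.5 on PHE arrays in the premature, 12.6 to 23.3 and 1.51 to 7.58 in the near-term, 23.7 to 37.9 and 12.8 to 16.8 in the newborn and 2.60 to 9.36 and 2.61 to 4.16 in the adult group. It was lower on all PHE than on all untreated arrays at each age but the adult. Of 5 fibroblast markers 3 had a probe. DCN was not called (-0.46, -0.32, 0.77 and -0.14). COL1A1 and COL1A2 both rose by 4.22 in the near-term fetus, and COL1A2 rose by 1.89 in the premature fetus. TIE1, the only 1 of 6 endothelial markers with a probe, rose by a fitted 2.34 in the near-term fetus (adjusted p = 0.00226), where 1 of the 4 untreated arrays measured it. Of the 2 fat and 2 brain markers with a probe, FABP4 (not tested in the premature fetus), GFAP (not tested in the newborn lamb) and MBP (not tested in the adult) were not called by limma where tested, and LEP was tested at no age. The summed fibroblast and fat signals overlapped between PHE and untreated arrays at each age. DCN made up most of the fibroblast sum in every group except near-term PHE, where its mean was 31.5 beside 31.6 for COL1A1. COL1A1 and COL1A2 were each higher on all PHE than on all untreated arrays in both fetal groups. The summed brain signal was lower on all premature PHE arrays (0.0953 to 0.154) than on all premature untreated arrays (0.180 to 0.310) and overlapped at the other ages. CNN1, the only smooth muscle marker with a probe, was not called (-0.26, -0.69, -0.21 and 0.12). The part of these cell types in the responses of the axis was not tested.

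**Figure D4:**
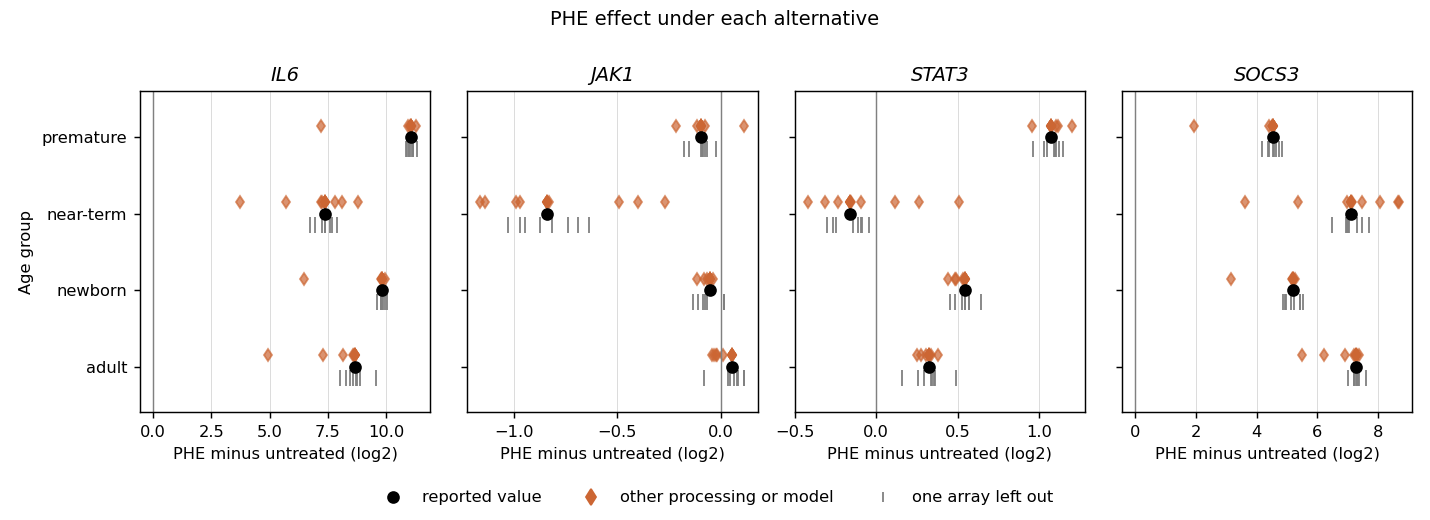
PHE minus untreated difference (log2, horizontal axis) for each gene and age group as reported (black), under each other processing or model (diamonds) and with 1 array left out (grey ticks). IL6 stays at or above 3.74 and SOCS3 at or above 1.95, whereas the near-term JAK1 value ranges from -1.16 to -0.27 and the near-term STAT3 value lies on both sides of 0, from -0.42 to 0.51.

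The plot of alternatives shows how far each effect moved with the processing. Normexp background correction, which adds an offset of 50 intensity units and so compresses differences from dim signals, gave IL6 differences of 7.19, 3.74, 6.47 and 4.91 and SOCS3 differences of 1.95, 3.61, 3.16 and 5.49 in the premature, near-term, newborn and adult groups, and all 8 were still called. The same correction moved the median of all probes to -0.21 in the premature, -0.42 in the near-term and 0.042 in the newborn group. Scaling to the median moved it to -0.20 and -0.23 in the premature and near-term groups and, by less, to -0.12 in the adult group. Relative to the shift with normexp the near-term JAK1 value of -0.40 was no decrease. Relative to the median of all probes it was -0.76 as reported, -0.76 with scaling to the median and -0.46 with quantile normalization. The near-term calls over all probes were 1741 higher and 1820 lower as reported and 742 higher and 3482 lower with normexp. The newborn calls were 578 higher and 505 lower as reported, 391 and 219 with normexp and 485 and 197 with scaling to the median.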

How the data were processed

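The authors' Agilent Feature Extraction 9.5.3.1 files hold background-subtracted, detrended intensity values of 1 dye, deposited unscaled and equal to the deposited value table, with surrogates for dim signals; other columns that per the file headers mark controls, outliers and signals well above background were also read. From 15744 spots, 536 controls were left out, and spots of each of 15008 probes were averaged. Signals were divided by each array's 75th percentile and log2 transformed. limma 3.58.1 in R 4.3.3 fitted 8 group means to 32 arrays; a probe was tested if all 4 arrays of either compared group read it well above background, with Benjamini-Hochberg adjustment over them, and the code was tested on simulated data. Names came from the array file, from accessions in RefSeq or, for 1884 probes, JAK1, STAT3 and SOCS3 among them, by matching group means to those in the study's list of altered genes within 0.1%, or within rounding for the premature list, whose means are rounded (near-term PHE without replicate 1). Premature list means moved by 1% still gave a single match for 386 of 1269 entries, but for 3 of 246 with both means above 1, so chance matches occur among dim genes. This rests on the premature list alone for STAT3, with no other probe within 5%, and on the near-term list alone for JAK1, with 3 probes within 5% and 1 within 1%. For the premature list the listed ratio of PHE to untreated means was also matched. No other comparison column of the list was used. The text names the 4 members, the pathway and marker lists and the 3 named probes most correlated with each member. Members and lists were chosen with earlier results of these data known. Same-numbered PHE and untreated arrays deviated together in the premature (r = 0.40 to 0.51) and newborn (r = 0.48 to 0.56) groups, a pairing seen in the data and not stated. Alternatives covered background correction, scaling, filter, test, weights, blocks and leaving out arrays.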

Additional observations from a re-analysis of the deposited data

Results flagged for a closer look

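In the newborn lamb, IL6 on PHE replicate 1 was 3.37, below the other 3 PHE arrays at 3.79 to 3.87, a gap large for the range of 4 values. In the adult, JAK1 on untreated replicate 3 was 3.97, below the other 3 untreated arrays at 4.47 to 4.55. Chance picks out about 1 in 20 groups in this way, and 32 groups were tested. The PHE effect differed between ages by the test of the difference for IL6 (near-term minus premature -3.69, adjusted p = 0.0328) and for STAT3 (near-term minus premature -1.24, adjusted p = 0.0138), whose probe was named through the premature comparison that this test uses. The IL6 call was kept in only 14 of 26 alternatives and the STAT3 call in 22 of 26. Both were lost with normexp background correction (adjusted p = 0.0592 and 0.187).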

How the results depend on the processing

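The PHE effects on IL6 and SOCS3 kept their direction at all 4 ages under every alternative, and passed the threshold in all of them except the methods' t-test after adjustment. The STAT3 effect in the premature fetus kept its direction and its call in all alternatives. Values are log2 differences with limma adjusted p in brackets, unless the t-test is named, and pairs of ages are differences of PHE effects unless untreated arteries are named. The cause of these changes was not tested.

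With normexp background correction, values on the other side of 0 were 0.11 (0.698) for JAK1 in the premature fetus, -0.018 (0.994) for JAK1 in adults, 0.51 (0.0532) for STAT3 near-term, -0.23 (0.799) for JAK1 newborn minus premature, -0.13 (0.777) for STAT3 adult minus near-term, -0.069 (0.886) for STAT3 newborn minus near-term and 0.35 (0.0827) for JAK1 in untreated adult minus near-term arteries. Calls were lost for JAK1 near-term (-0.40, 0.0604), IL6 (-3.45, 0.0592) and STAT3 (-0.69, 0.187) near-term minus premature, and the near-term list fell to 15 altered genes. Near-term calls over all probes were then 742 higher and 3482 lower. Calls were gained for IL6 newborn minus near-term (2.73, 0.0407) and untreated SOCS3 adult minus near-term (-2.11, 0.00196).

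With quantile normalization, values on the other side of 0 were 0.11 (0.682) for STAT3 near-term, -0.042 (1.00) for JAK1 in adults, -1.50 (0.23) for IL6 and -2.47 (0.0213) for SOCS3 adult minus near-term, and, in untreated adult minus near-term arteries, 0.16 (0.355) for JAK1 and 1.99 (0.00165) for SOCS3. Both of these SOCS3 values passed the threshold. JAK1 near-term (-0.49, 0.00766) fell under 1.5-fold and IL6 near-term minus premature (-2.49, 0.0571) was lost, while SOCS3 was gained for near-term minus premature (4.18, 0.000746) and newborn minus near-term (-3.42, 0.00213). With scaling to the median, the sign changed for JAK1 in adults (-0.021, 0.998) and for untreated JAK1 (0.50, 0.299) and SOCS3 (0.15, 0.821) adult minus near-term. JAK1 near-term (-0.99, 0.0566) and STAT3 near-term minus premature (-1.27, 0.128) were lost, and SOCS3 near-term minus premature was gained (2.55, 0.0467).

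Without the filter on dim probes, untreated IL6 adult minus near-term passed (-2.72, 0.00182). The methods' t-test after Benjamini-Hochberg adjustment did not call IL6 (7.36, 0.0704), JAK1 (-0.84, 0.227) or SOCS3 (7.12, 0.11) near-term, nor IL6 (8.65, 0.179) or SOCS3 (7.29, 0.0685) in adults. By it the list held 3 altered genes near-term and 0 in adults. Over all probes it called 2956, 1936, 1957 and 655 in the premature, near-term, newborn and adult groups at its own threshold and 2609, 18, 1276 and 9 after adjustment, against 1768, 3561, 1083 and 368 by limma. With the spread taken only from the arrays compared, calls were lost for JAK1 near-term (-0.84, 0.244), IL6 (-3.69, 0.0729) and STAT3 (-1.24, 0.0859) near-term minus premature and untreated STAT3 adult minus near-term (0.66, 0.0888), and the near-term list held 12 altered genes. Near-term calls over all probes were then 130 higher and 1 lower.

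With array weights, calls were gained for JAK1 (1.11, 0.00178) and STAT3 (0.76, 0.045) adult minus near-term, JAK1 (-1.06, 0.000629) and SOCS3 (4.18, 0.000263) near-term minus premature, and JAK1 (1.10, 0.000462), STAT3 (0.91, 0.00695) and SOCS3 (-3.47, 0.00141) newborn minus near-term. Untreated STAT3 adult minus near-term (0.57, 0.0186) fell under 1.5-fold, and the sign changed for JAK1 in adults (-0.033, 0.94), SOCS3 adult minus near-term (-1.30, 0.278) and untreated SOCS3 adult minus near-term (0.90, 0.236).

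Same-numbered arrays of the near-term (r = 0.08, 0.08, -0.12 and 0.51) and adult (r = -0.11, 0.03, -0.04 and 0.02) groups did not deviate together in every pair, although near-term replicate 4 did, so their numbers were not taken to pair them. With the replicate block, JAK1 adult minus near-term (0.89, 0.0404) and SOCS3 near-term minus premature (2.59, 0.0325) passed, and the replicate block changed no other call for the 4 genes. With slide as a block, calls were lost for JAK1 near-term (-0.27, 0.522), STAT3 near-term minus premature (-0.81, 0.126) and untreated STAT3 adult minus near-term (0.53, 0.0453, under 1.5-fold), the near-term list fell to 17 altered genes, and IL6 newborn minus near-term was gained (4.10, 0.0227). Near-term calls over all probes with this block were 1415 higher and 1467 lower. The sign changed for STAT3 near-term (0.26, 0.522) and untreated SOCS3 adult minus near-term (0.34, 0.655).

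A pair of alternatives was chosen after seeing the data. Without the dimmest untreated and PHE near-term arrays together (untreated replicate 4, PHE replicate 1), calls were gained for JAK1 adult minus near-term (1.22, 0.00208) and near-term minus premature (-1.07, 0.00956), SOCS3 near-term minus premature (3.53, 0.00445), and JAK1 (1.11, 0.00439), STAT3 (0.78, 0.0398) and SOCS3 (-2.88, 0.00812) newborn minus near-term. Untreated STAT3 adult minus near-term (0.52, 0.0323) fell under 1.5-fold, and the sign changed for the SOCS3 effects (-0.78, 0.477) and untreated levels (0.21, 0.772) of adult minus near-term. With only the near-term arrays and without PHE replicate 1, JAK1 near-term was lost (-0.97, 0.148) and the list held 12 altered genes. Near-term calls over all probes were then 256 higher and 83 lower.

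Leaving out each array in turn changed a call or a sign for JAK1 in the newborn lamb (-0.13 to 0.017) and in adults (-0.083 to 0.11). The same held for newborn minus premature in JAK1 (-0.037 to 0.12), adult minus newborn in JAK1 (-0.030 to 0.19) and adult minus near-term in JAK1 (0.69 to 1.08) and SOCS3 (-0.41 to 0.80). Newborn minus near-term ranged from 1.91 to 3.06 in IL6, 0.58 to 0.97 in JAK1, 0.59 to 0.85 in STAT3 and -2.52 to -1.30 in SOCS3. Near-term minus premature ranged from -4.30 to -3.14 in IL6, -0.93 to -0.54 in JAK1 and 1.95 to 3.17 in SOCS3. Untreated adult minus near-term ranged from -0.21 to 0.17 in JAK1, 0.52 to 0.73 in STAT3 and -1.0 to 0.21 in SOCS3.

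Signal over background limits several values. Untreated IL6, and untreated SOCS3 outside the adult, lay at or near background, where the deposited signals are surrogates, so their fitted differences and the age differences built on them are imprecise. Untreated SOCS3 in the adult was read well above background but was dim, and its fold depends on the background correction. The number of arrays, 4 in a group, limits the precision for JAK1 and STAT3. Premature and newborn arrays each filled a slide of their own, so age cannot be told apart from slide for them.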
